A study of Mus musculus with 8 samples.

Results

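CTCF-K20R EBs held 99 genes, of 18094 in the expression table, at levels that were reached in none of the 3 other groups of cells. A gene was taken when its mean in CTCF-K20R EBs was at least 50 normalized counts, when this mean plus 1 was at least 3 times the mean plus 1 of WT EBs, of WT mESCs and of CTCF-K20R mESCs, and when both CTCF-K20R EB libraries lay above both WT EB libraries. The levels of these genes in the 4 groups therefore chose them, and those levels and the day 4 difference between genotypes are given here as a description, with no test. The roles of the genes, their place in the genome and their promoters played no part in the choice. The difference between genotypes in mESCs and the course of WT cells were not compared by the rule either, but the rule set an upper bound on the means behind them.

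The cells were E14Tg2A mouse embryonic stem cells (mESCs), kept on inactivated mouse embryo fibroblasts with leukemia inhibitory factor and the 2i inhibitors. On day 0 they were WT mESCs or mESCs in which lysine 20 of CTCF had been changed to arginine with CRISPR/Cas9 (CTCF-K20R). On day 4 they were embryoid bodies (EBs), grown by each genotype in hanging drops with serum and without leukemia inhibitory factor. Each of the 4 groups had 2 libraries, and the sources used here do not say how many edited clones gave the CTCF-K20R cells. An EB is an aggregate of several cell types, and in such bulk samples fewer cells of a type and less RNA per cell cannot be told apart.

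CTCF is a zinc finger protein that binds DNA, stops cohesin as it extrudes loops and so shapes which enhancers and promoters meet. When mESCs leave the naive state, they pass through a formative, epiblast-like state and then choose between ectoderm, mesoderm and endoderm. Pou3f1 (Oct6) and Sox3 are transcription factors of the formative epiblast that stay on as cells turn to neural ectoderm.

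Each library held 19412659 to 21311513 normalized counts in all. The pairs of WT libraries differed by less than the sampling noise, with a ratio of 0.314 in mESCs and 0.278 in EBs, against 4.00 and 4.36 in the CTCF-K20R pairs, so each WT pair was counted as 1 sample. The summed level of 5 mESC markers was between 84800 and 84950 in WT mESCs, 15300 and 15410 in WT EBs, and 31170 and 31880 in CTCF-K20R EBs. The summed level of 4 mesoderm markers was between 36230 and 36350 in WT EBs and between 2333 and 2428 in CTCF-K20R EBs. The EBs of both genotypes thus matched their label in falling below mESCs for stem cell markers, while the mesoderm markers were high in the WT EBs.

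The 99 genes took 0.454% of all normalized counts in CTCF-K20R EBs. Their share was 0.101% in WT EBs, 0.0387% in WT mESCs and 0.0398% in CTCF-K20R mESCs. The ratio of CTCF-K20R EBs to the highest other group, each mean plus 1, ran from 3.05 to 17.3 with a median of 4.43, and was at least 10 for 6 genes, at least 5 for 34 and under 4 for 40. The CTCF-K20R EB means ran from 52.8 to 19548 normalized counts, with a median of 229. At least 1000 counts were reached by 21 of the genes, and 23 stayed under 100.

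**Figure D1:**
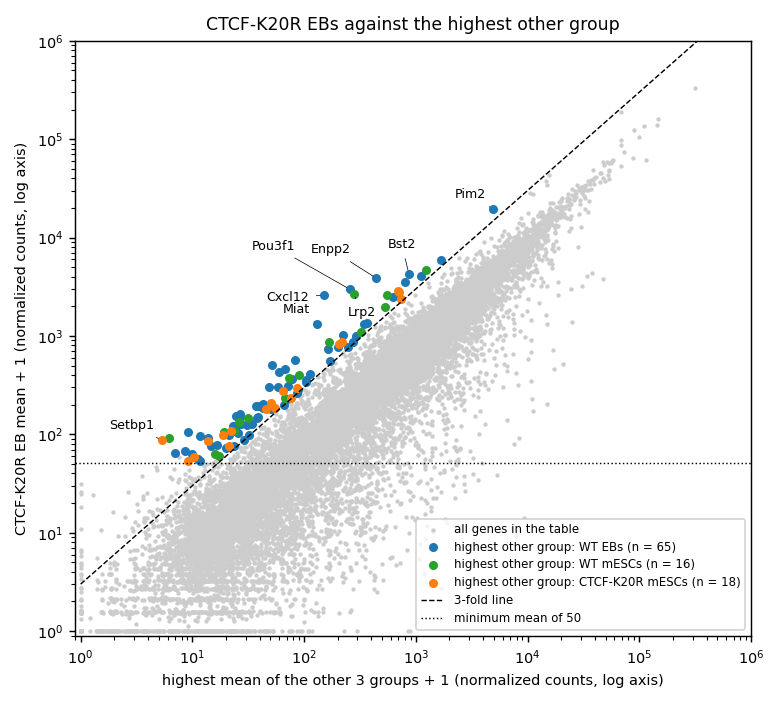
Mean of CTCF-K20R EBs against the highest mean of the other 3 groups for every gene, each plus 1 and on log axes; the dashed line is the 3-fold limit and the dotted line the minimum mean of 50. The 99 genes are coloured by which group came next, and that was WT EBs for 65 of them.

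Next to CTCF-K20R EBs, WT EBs were the highest group for 65 of the genes, WT mESCs for 16 and CTCF-K20R mESCs for 18. This differs from the remaining 1002 genes called higher on day 4, where WT EBs came next for 8.48% and where 559 had a mESC mean above that of CTCF-K20R EBs. The rule itself removed such genes, so this contrast describes what was chosen. The 3-fold limit passed between Sncb with 3.05 and Plvap with 3.05 inside it, and Gm16233 with 2.99 and Fam19a4 with 2.98 outside it. Beside the limit on the mean, Oprk1 with 52.9 counts lay inside it and Nalcn with 49.2 outside it. Another 2 genes, Lpo and Gm4070, met both limits but had a CTCF-K20R EB library within reach of the WT EB libraries, and were left out.

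In the fit across 15767 genes (limma on log2 of the normalized count plus 1, absolute log2 fold change above 1 and Benjamini-Hochberg adjusted p under 0.05), 85 of the 99 genes were called higher in CTCF-K20R EBs than in WT EBs, where 6.89% of all genes tested were. Since this contrast chose the genes, nothing is read from that count, which was 53 without CTCF-K20R EB replicate 1. The 14 genes not called were Maob, Eef1a2, Tmem54, Clvs2, Syt4, Pcsk2, Epha8, Ptchd1, Oprk1, Clca6, Thbs4, Fgfbp1, Nr3c2 and Tcerg1l. In 9 of these 14, a CTCF-K20R mESC library was at or under 3.5 counts, which was also so in 18 of the 85 genes called. Both CTCF-K20R EB libraries gave like values for most genes. The higher of them was at most 1.2 times the lower for 76 genes, and more than 1.5 times for 7. Nr3c2, the mineralocorticoid receptor, stood apart with 104 and 12.4 counts, and Dnah7c, an axonemal dynein heavy chain, with 94.2 and 33.1. Of the 31-base words in Dnah7c transcripts, 38.4% were unique to it and 51.0% were shared with its neighbour Dnah7b. Dnah7b had 62.5 and 65.4 counts in WT EBs and 32.4 and 24.2 in CTCF-K20R EBs.

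**Figure D2:**
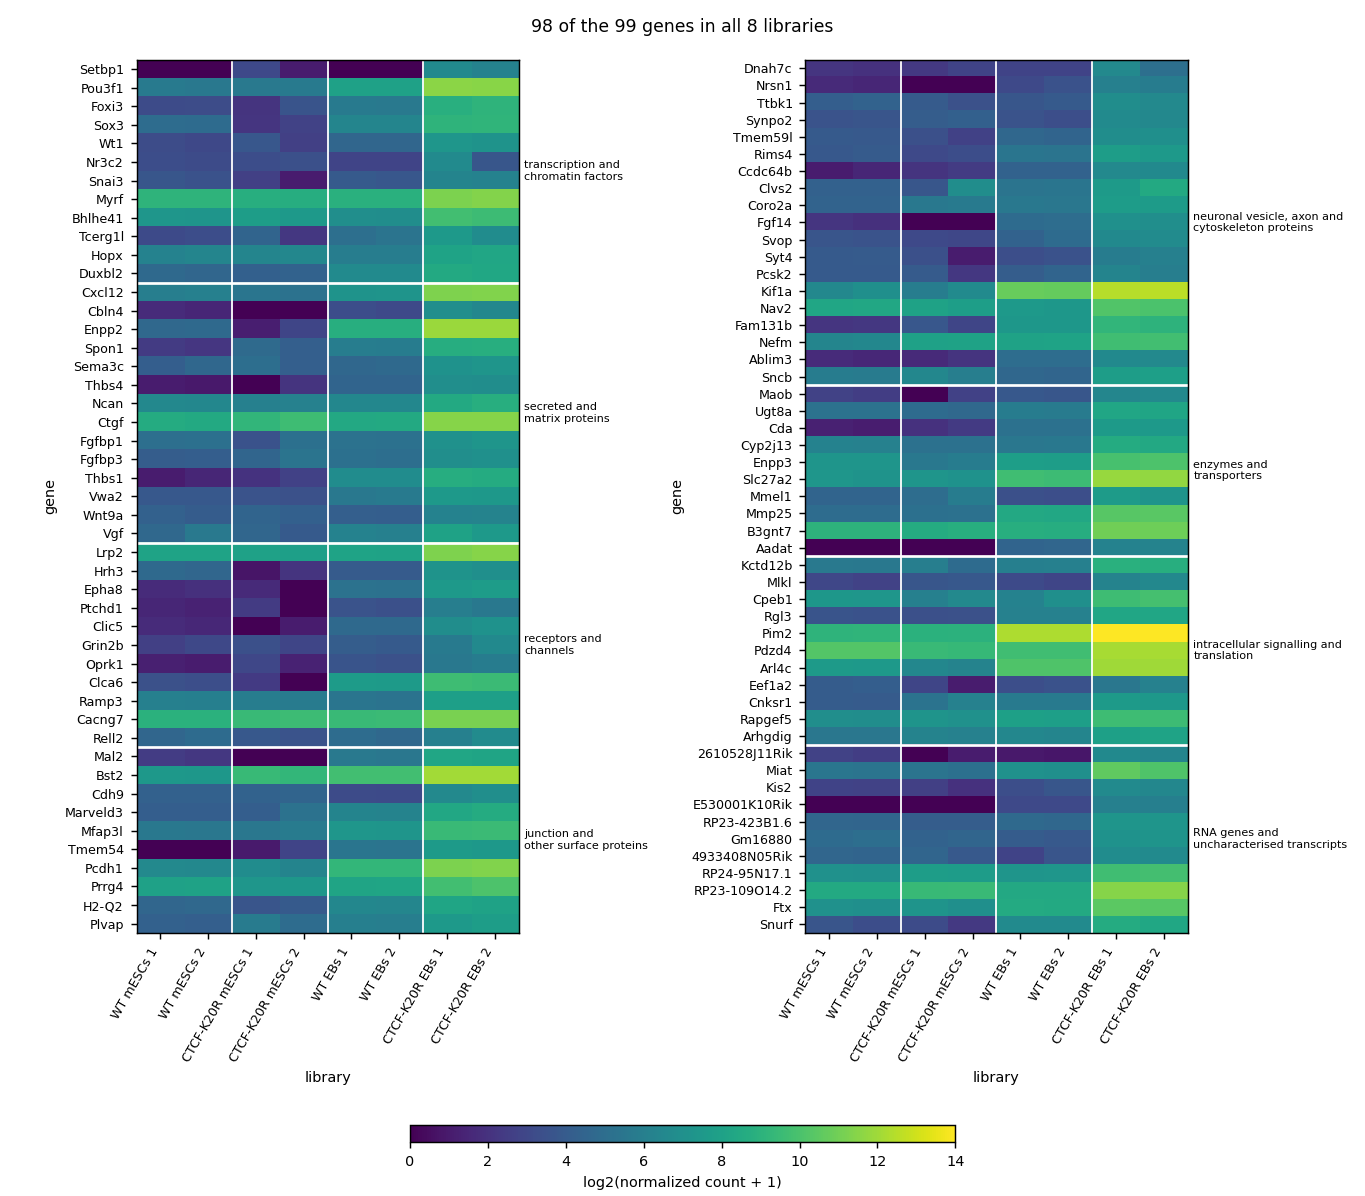
Level of 98 of the 99 genes (log2 of the normalized count plus 1, colour scale from 0 to 14) in all 8 libraries, grouped by role and ordered within a role by the ratio to the highest other group. The 2 columns of CTCF-K20R EBs are the brightest in each row, narrowly so for Nr3c2 replicate 2 with 12.4 counts, and the WT pairs look alike.

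Transcription and chromatin factors made up 12 of the 99 genes, with a median ratio of 5.46, the highest of the 8 role groups. Pou3f1 (chromosome 4, 124656807 to 124660655, GRCm38) had 51.8 and 48.2 counts in WT mESCs, 48.6 and 54.6 in CTCF-K20R mESCs, 253 and 258 in WT EBs and 3033 and 2921 in CTCF-K20R EBs. The gene was therefore about equal in mESCs of both genotypes, and CTCF-K20R EBs were 11.6-fold above WT EBs. Sox3, a SoxB1 factor of epiblast and neural progenitors, had 29.5 and 28.6 counts in WT mESCs, 3.52 and 5.70 in CTCF-K20R mESCs, 83.0 and 82.5 in WT EBs and 553 and 574 in CTCF-K20R EBs. Here the order of the genotypes in mESCs was opposite to that in EBs.

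Foxi3, a forkhead factor of the preplacodal ectoderm, had 51.8 and 49.8 counts in WT EBs and 455 and 549 in CTCF-K20R EBs, and at most 11.7 in any mESC library. Setbp1, which encodes a SET-binding protein, was at 0 in all 4 WT libraries, at no more than 7.57 counts in CTCF-K20R mESCs and at 99.7 and 73.1 in CTCF-K20R EBs, which put it at least 32.5-fold above WT EBs. Its identifier had no entry in GENCODE vM21, so no position is given. Myrf, the membrane-tethered factor best known from oligodendrocytes, had 471 and 479 counts in WT EBs and 2459 and 2745 in CTCF-K20R EBs, and mESC values between 421 and 548. Bhlhe41, a circadian repressor, had 121 and 114 against 852 and 787.

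Wt1, the zinc finger factor of kidney and gonad development, had 24.0 and 23.6 counts in WT EBs and 160 and 145 in CTCF-K20R EBs. Snai3, a Snail family repressor, had 14.4 and 12.9 against 78.0 and 72.2. Hopx, an atypical homeodomain protein, had 59.7 and 60.3 against 273 and 315, but 73.8% of its 31-base words were unique to it, the others being shared mainly with Hopxos. None of the 31-base words of Duxbl2, with 104 and 101 against 363 and 321 counts, was unique among transcripts, so its reads cannot be told from those of Duxbl3.

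**Figure D3:**
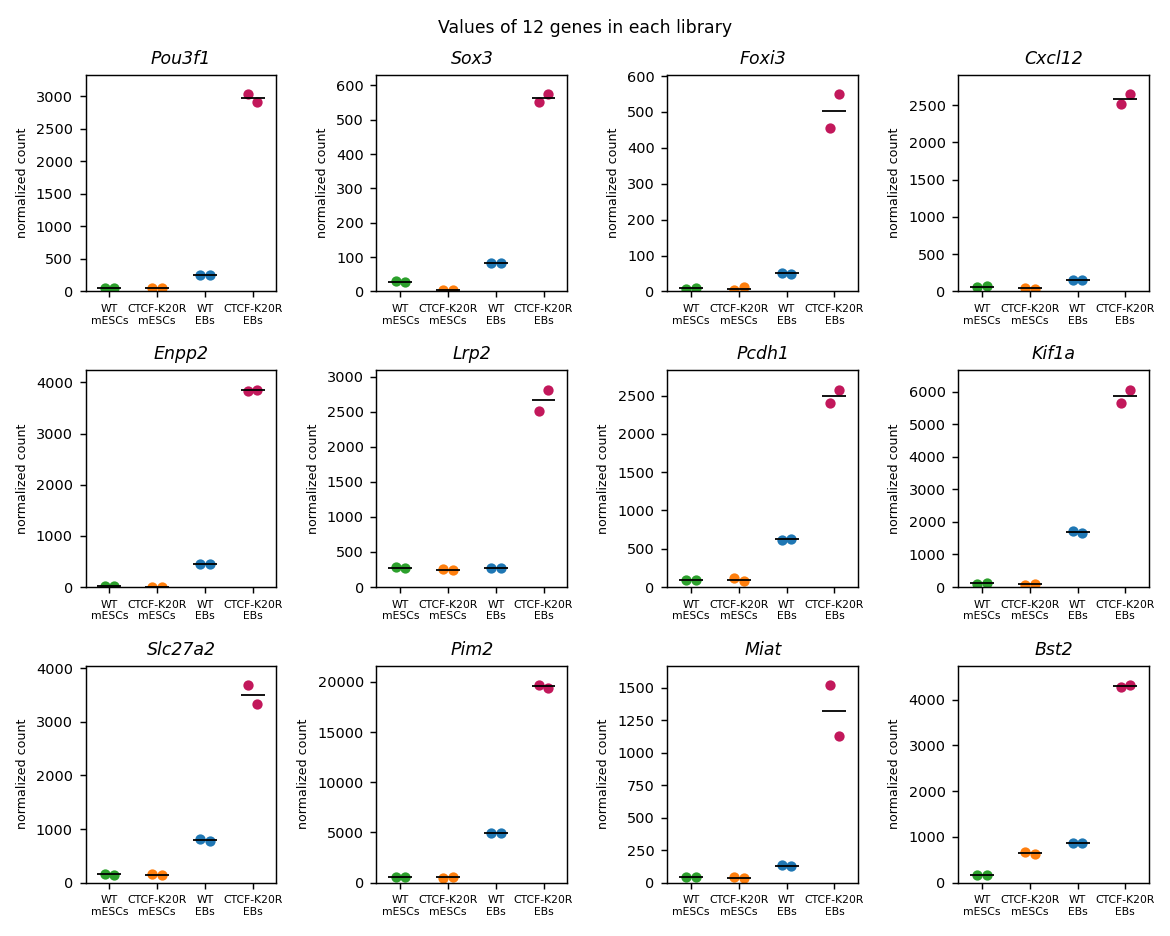
Normalized counts of 12 of the genes in each library (points) with the mean of each group (line), each panel from 0. CTCF-K20R EBs lie above the other groups in every panel, and the level of WT EBs ranges from that of mESCs (Lrp2) to well above it (Pim2, Kif1a, Enpp2).

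Secreted and matrix proteins were 14 of the genes, and this group held the largest ratio. Cxcl12 (chromosome 6, 117168535 to 117181367), the chemokine that guides cells through CXCR4, had 61.8 and 68.4 counts in WT mESCs, 42.8 and 38.4 in CTCF-K20R mESCs, 148 and 149 in WT EBs and 2519 and 2646 in CTCF-K20R EBs. Its mean in CTCF-K20R EBs was 2583 ± 89.7 counts (SD, n = 2), 17.4-fold above WT EBs. Enpp2, the autotaxin that makes lysophosphatidic acid, had 25.8 and 26.2, 1.24 and 6.53, 442 and 446, and 3839 and 3855 counts in the same order of groups. Its level thus differed by 8.67-fold between EBs of the 2 genotypes, and CTCF-K20R mESCs were the lowest group.

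Ctgf, a matricellular protein and a known YAP target, had 393 and 366 counts in WT mESCs, 596 and 802 in CTCF-K20R mESCs, 346 and 369 in WT EBs and 2844 and 2821 in CTCF-K20R EBs. The thrombospondins Thbs1 and Thbs4, which are matrix glycoproteins, had 112 and 112 against 429 and 390 counts, and 22.1 and 21.9 against 121 and 118. Spon1, an axon guidance protein of the floor plate, had 59.3 and 57.2 counts in WT EBs and 428 and 439 in CTCF-K20R EBs. Sema3c, a secreted semaphorin, had 24.4 and 27.0 against 140 and 157. Cbln4, a secreted synaptic organizer, was at or under the limit of detection in all 4 mESC libraries and had 8.84 and 7.47 counts in WT EBs against 121 and 88.9 in CTCF-K20R EBs.

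Ncan, the chondroitin sulfate proteoglycan neurocan of brain matrix, had 86.8 to 91.5 counts in WT mESCs and EBs and 366 and 432 in CTCF-K20R EBs. The carrier proteins Fgfbp1 and Fgfbp3, which release FGFs from heparan sulfate, had means 3.91-fold and 3.81-fold above WT EBs. Wnt9a was the only member among 44 tested genes of the Wnt, Fgf, Bmp and Nodal ligand list, of which 7 were called higher and 19 lower on day 4. It had 18.2 and 17.0 counts in WT EBs and 73.5 and 75.9 in CTCF-K20R EBs. Its direct neighbour Wnt3a, a ligand of the primitive streak, had 84.8 and 83.8 counts in WT EBs and 5.75 and 7.60 in CTCF-K20R EBs (log2 fold change -3.49 ± 0.475 (SE), adjusted p = 0.00336, limma), so the pair differed in opposite directions.

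Since the mESCs were kept on fibroblasts and several of these genes are also known from stroma, fibroblast markers were read in the same libraries. The summed level of 7 such markers was between 487 and 505 counts in WT EBs and between 680 and 745 in CTCF-K20R EBs, and 5 of the 7 were above the limit of detection in each. Thy1, which had 526 and 580 counts in CTCF-K20R EBs, made up most of that sum. Col1a1 had 144 and 167 counts in WT EBs and 48.9 and 84.2 in CTCF-K20R EBs, Dcn had about 1 count against 15.4 and 14.9, and Postn was at 0 in CTCF-K20R EBs. Col3a1 had a mean of 3.83 counts in WT EBs and 62.9 and 22.4 in CTCF-K20R EBs (log2 fold change 3.00, adjusted p = 0.0473, limma). In mESCs the sum was between 500.5 and 511 counts in WT and between 150.3 and 160.2 in CTCF-K20R cells, so within the CTCF-K20R line it was higher in EBs. In a wider fibroblast list, 2 of 13 genes tested were called higher and 5 lower on day 4. Their median log2 fold change was -0.78. The 18 listed genes that were measured summed to 56354 and 56167 counts in WT EBs and to 7282 and 8116 in CTCF-K20R EBs. In mESCs these listed genes summed to 55510 and 56078 counts in WT and to 50446 and 50024 in CTCF-K20R cells, near the level of WT EBs. In EBs the direction of their sum was opposite to that of the summed 7 markers. Thy1 set the latter, with a mean of 224 counts in WT EBs and 553 in CTCF-K20R EBs. Col3a1 and Dcn were also higher in CTCF-K20R EBs, while Col1a1, Col1a2 and Postn were lower. The part of fibroblasts in the levels of the secreted and matrix genes was not tested.

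Receptors and channels were 11 of the genes. Lrp2 (chromosome 2, 69424340 to 69586065), the endocytic receptor megalin that takes up SHH and lipoproteins in neuroepithelium, was flat in the other groups, with 281 and 272, 253 and 242, and 273 and 271 counts in WT mESCs, CTCF-K20R mESCs and WT EBs. It reached 2519 and 2816 in CTCF-K20R EBs, 9.79-fold above WT EBs. Cacng7, an AMPA receptor regulatory subunit, had 725 and 741 counts in WT EBs and 2361 and 2332 in CTCF-K20R EBs. Epha8, an ephrin receptor of the developing brain, had 38.3 and 36.4 against 181 and 209, with mESC values at or under 2.83.

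Grin2b, an NMDA receptor subunit, had 16.7 and 14.6 counts in WT EBs and 54.3 and 98.5 in CTCF-K20R EBs. Hrh3, a histamine receptor of neurons, had 15.0 and 15.1 against 142 and 124. Ramp3, which partners the calcitonin-like receptor, had 42.7 and 39.1 against 237 and 234. The chloride channel regulator Clca6 had 205 and 198 against 816 and 740, but 44.4% of its words were unique, the rest shared mainly with Clca4b. The opioid receptor Oprk1 lay just inside the limit on the mean, with 47.3 and 58.4 counts in CTCF-K20R EBs.

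Junction and other surface proteins were 10 of the genes, and in 8 of them WT EBs were above WT mESCs by more than 1 on the log2 scale. Pcdh1, an epithelial protocadherin, had 617 and 628 counts in WT EBs and 2406 and 2576 in CTCF-K20R EBs. It was the only member among 25 tested protocadherins and immunoglobulin adhesion genes, of which 4 were called higher and 11 lower on day 4. Bst2 (chromosome 8, 71534255 to 71537456), the membrane protein tetherin that holds back virions, had 175 and 170 counts in WT mESCs, 678 and 626 in CTCF-K20R mESCs, 869 and 861 in WT EBs and 4265 and 4312 in CTCF-K20R EBs. Bst2 is a known interferon target, and in the list of interferon response genes it was the only member among 24 tested, with 3 called in each direction.

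Mal2, a transport protein of polarized epithelia, was at 0 in both CTCF-K20R mESC libraries and had 49.0 and 46.5 counts in WT EBs and 313 and 292 in CTCF-K20R EBs. The tight junction protein Marveld3 had 78.0 and 75.2 against 337 and 397. Cdh9, a classical cadherin of neurons, had 8.14 and 7.73 in WT EBs, below its level in every mESC library, and 94.6 and 119 in CTCF-K20R EBs. Its neighbour Cdh6 was called lower, with a log2 fold change of -3.77.

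Proteins of neuronal vesicles, axons and the cytoskeleton formed the largest role group, with 20 genes and a median ratio of 4.12. The group also holds Dnah7c, Synpo2, Coro2a and Ccdc64b. Roles were not counted over all genes tested, so nothing is read from its size. Kif1a, the kinesin that carries synaptic vesicle precursors, had 91.1 and 126 counts in WT mESCs, 60.9 and 103 in CTCF-K20R mESCs, 1707 and 1668 in WT EBs and 5657 and 6064 in CTCF-K20R EBs. Nefm, the medium neurofilament chain, had 271 and 277 counts in WT EBs and 850 and 874 in CTCF-K20R EBs. Nav2, a neuron navigator, had 186 and 167 against 1161 and 1039.

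Sncb, a presynaptic protein, had 24.8 and 22.5 against 223 and 238. Syt4, a synaptotagmin of dense core vesicles, had 9.25 and 10.4 against 57.5 and 68.0, and Rims4, an active zone protein, 43.2 and 40.6 against 217 and 189. Fgf14, an intracellular modulator of sodium channels, had 28.3 and 30.8 against 128 and 121. Most of these levels were thus low in absolute terms, and 2 of the 20 genes, Kif1a and Nav2, had a mean of at least 1000 counts in CTCF-K20R EBs.

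Markers of neurons were set beside them. The summed level of 5 neuron markers was between 2889 and 2891 in WT EBs and between 3262 and 3308 in CTCF-K20R EBs, all 5 above the limit of detection. Stmn2, with 2552 and 2563 counts in WT EBs and 2595 and 2495 in CTCF-K20R EBs, carried most of that sum. In mESCs the sum was higher, between 9705 and 9803 in WT and between 10830 and 10890 in CTCF-K20R cells. It is therefore not a readout of neurons alone. Tubb3 had 200 and 197 counts in WT EBs and 330 and 328 in CTCF-K20R EBs, and Snap25 43.1 and 45.1 against 76.1 and 67.6. Elavl3, which encodes a neuronal RNA-binding protein, had 44.2 and 46.2 against 299 and 349 counts, and Dcx, doublecortin, 51.9 and 37.5 against 7.94 and 22.5. The part of any change in neuron content in the levels of the 20 genes was not tested.

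Enzymes and transporters were 10 of the genes. Slc27a2, a very long chain acyl-CoA synthetase, had 820 and 783 counts in WT EBs and 3685 and 3339 in CTCF-K20R EBs. B3gnt7, a glycosyltransferase of keratan sulfate synthesis, had 440 and 429 against 2018 and 1912, with mESC values between 391 and 528. Mmp25, a membrane-anchored matrix metalloproteinase, had 345 and 335 against 1305 and 1346. Enpp3, an ectonucleotide pyrophosphatase, had 225 and 223 against 959 and 1085. Mmel1, a neprilysin-like peptidase, had 9.55 and 9.34 against 205 and 153, while mESCs of both genotypes had between 21.6 and 57.7.

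Intracellular signalling and translation proteins were 11 of the genes. Pim2 (chromosome X, 7878262 to 7883432), a serine/threonine kinase that promotes growth and survival, had the highest level of all 99 genes. Its counts were 559 and 563 in WT mESCs, 491 and 516 in CTCF-K20R mESCs, 4900 and 4900 in WT EBs and 19664 and 19431 in CTCF-K20R EBs. Per kilobase of exon it also led, with 6994 normalized counts in CTCF-K20R EBs and 1753 in WT EBs, before RP23-109O14.2 with 5113 and Bst2 with 4749 in CTCF-K20R EBs.

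Pdzd4, a PDZ domain protein, had 838 and 845 counts in WT EBs and 4585 and 4665 in CTCF-K20R EBs. Arl4c, a small GTPase of the ARF family, had 1115 and 1119 against 4054 and 4044. Cpeb1, which binds cytoplasmic polyadenylation elements, had 74.2 and 127 against 817 and 923. Kctd12b had 65.5 and 68.2 against 471 and 440, and Mlkl, the effector of necroptosis, 7.91 and 6.68 against 75.9 and 91.8.

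RNA genes and uncharacterised transcripts were the last 11. Miat, a long non-coding RNA of neural and retinal tissue, had 43.3 and 40.6, 40.6 and 34.7, 134 and 126, and 1518 and 1128 counts in WT mESCs, CTCF-K20R mESCs, WT EBs and CTCF-K20R EBs. Of its words 73.1% were unique. 2610528J11Rik had 5.66 and 4.72 counts in WT mESCs, 0.955 and 0.807 in WT EBs and 99.8 and 82.7 in CTCF-K20R EBs. Kis2, an RNA gene beside Gpc3, had 9.13 and 12.2 against 102 and 88.0, while Gpc3, a glypican, was called lower with 7516 and 7484 against 1165 and 1196. E530001K10Rik was at 0 in every mESC library and had 7.51 and 7.54 against 68.2 and 64.6.

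Ftx, a non-coding RNA of the X inactivation centre, had 371 and 361 counts in WT EBs and 1403 and 1315 in CTCF-K20R EBs, and RP23-423B1.6, which lies inside Ftx on the same strand, had 26.9 and 24.3 against 158 and 159. Jpx, the next gene of that centre, did not pass the test, with a log2 fold change of -0.04. RP23-109O14.2 had 354 and 350 against 2788 and 2836 counts, but 10.6% of its words were unique, most of the others being shared with Gm43041. Snurf, which is annotated as protein-coding and shares its transcript with Snrpn, had 103 and 103 against 395 and 324, and none of its words was unique. An entry named Snrpn had means of 1272 counts in WT EBs and 3478 in CTCF-K20R EBs (log2 fold change 1.45, called higher). Another, with more counts, had 8035 and 12612 (0.65, not called).

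Of the 99 genes, 9 (9.09%) were in any of the 21 gene lists of lineages, states and pathways. Listed genes outside the 99 made up 2.9% of all genes tested. The formative epiblast list held 3 (Pim2, Pou3f1 and Sox3) of 27 genes tested, and 9 of the 27 were called higher and 2 lower on day 4, with a median log2 fold change of 0.49 against 0.01 over all genes tested. Besides the 3, the genes called higher were Dnmt3b, Foxd3, Lefty1, Nodal, Sfrp2 and Slc7a3. Dnmt3b, a de novo DNA methyltransferase, came near the limit with 14624 and 14620 counts in WT EBs and 36756 and 38180 in CTCF-K20R EBs, and Fgf5, the classical marker of this state, had 3765 and 3753 against 3205 and 3309.

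The neural ectoderm list also held 3 of the genes (Lrp2, Ncan and Sox3) of 26 tested, with 5 called higher and 7 lower and a median of -0.18. The other two called higher were Pax6, with a log2 fold change of 2.61 and CTCF-K20R EB counts of 100.2 and 84.2, and Sox1, with 4.17 and counts of 40.1 and 53.8. The regional factors Emx2, Irx3, Irx5, Nkx6-1, Six3 and Sox21 and the radial glia gene Fabp7 were called lower. The neuronal list held Nefm alone among 22 tested, with 5 called higher and 4 lower.

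No member came from the lists of naive or core pluripotency, the 2-cell-like state, methylation-silenced germline genes, mesoderm and streak, visceral endoderm, trophoblast, fibroblasts, blood and endothelium, hypoxia and glycolysis, or p53 targets. The same held for the lists of surface ectoderm and epithelium, neural crest and placode, primordial germ cells and imprinted genes. Many genes of some of these lists were nonetheless higher in CTCF-K20R EBs than in WT EBs. Of 20 naive pluripotency genes 14 were called higher and 3 lower, of 33 germline genes 19 and 2, of 28 hypoxia and glycolysis genes 12 and 0, and of 12 genes of the 2-cell-like state 8 and 0. Of 33 mesoderm and streak genes, 0 were called higher and 27 lower. Of 15 neural crest and placode genes 3 were called higher and 6 lower, and of 24 surface ectoderm and epithelium genes 5 and 5. For 12 primordial germ cell genes these counts were 2 and 4, and for 62 imprinted genes 6 and 11. In the 2-cell-like state list, 7 of the 12 were called higher in CTCF-K20R mESCs as well.

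The rule did not compare WT EBs with WT mESCs, but it capped both means and so left out genes high in mESCs. This comparison sets 1 sample against 1, so values are a description with no test, and nothing is read from their counts. WT EBs were above WT mESCs by more than 1 on the log2(count + 1) scale for 52 of the 99 genes, where 18.9% of all genes tested were, and below by more than 1 for 5, where 16.3% were. The other 42 lay between. The median difference was 1.08 for the 99 genes and 0.01 for all genes tested, and 3.51 for the 99 genes in CTCF-K20R cells, where the rule set it high. Thbs1 and Tmem54 differed most in WT cells, by 5.51 and 5.43, from mESC levels at or under the limit of detection. Pim2 was 3.12 and Kif1a 3.95 higher in WT EBs than in WT mESCs, while Lrp2 differed by -0.02, Wnt9a by 0.00 and Ncan by -0.01.

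The 5 genes that were lower in WT EBs than in WT mESCs by more than 1 were 2610528J11Rik, 4933408N05Rik, Sncb, Cdh9 and Mmel1. The rule all but fixed a larger change in CTCF-K20R than in WT cells, and Tmem54 was the exception, with 5.30 against 5.43. Enpp2 differed by 9.62 between CTCF-K20R EBs and CTCF-K20R mESCs and by 4.04 between WT EBs and WT mESCs, and Mal2 by 8.25 and 3.24.

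**Figure D4:**
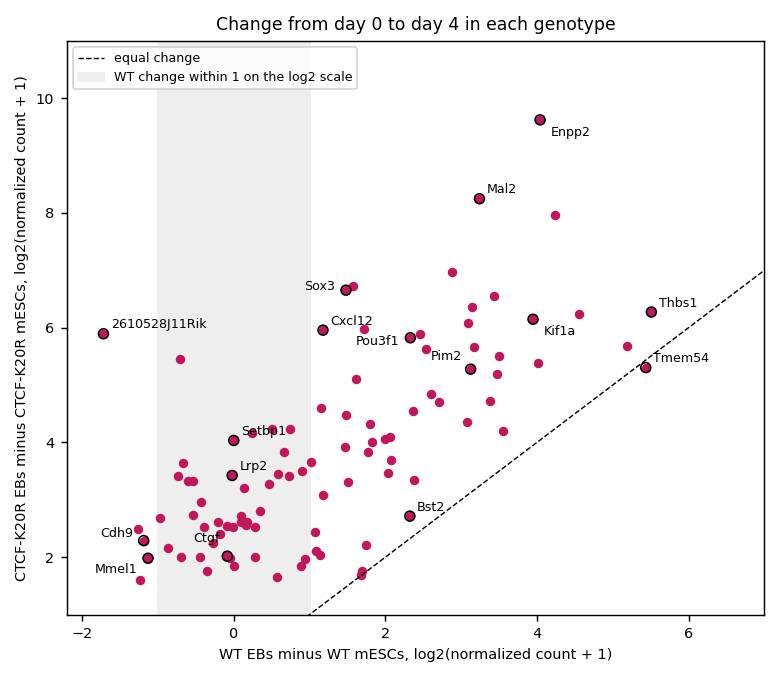
Difference between day 4 and day 0 in CTCF-K20R cells (vertical axis) and in WT cells (horizontal axis), both on the log2(count + 1) scale, 1 point per gene. The points spread from genes that were lower in WT EBs than WT mESCs to genes more than 5 higher; the rule placed nearly every point above the line of equal change.

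In mESCs, the rule bounded both genotypes from above and did not compare them. The same fit called 5 of the 99 genes higher in CTCF-K20R than in WT mESCs, where 1.19% of all genes tested were, and 7 lower, where 2.60% were. The remaining 87 were not called. The median log2 fold change was -0.16 for the 99 genes and -0.01 for all genes tested. Both CTCF-K20R mESC libraries lay above both WT mESC libraries for 29 of the genes, where 37.6% of all genes tested did, and below them for 44, where 40.3% did. Leaving out CTCF-K20R mESC replicate 2 gave 3 higher and 6 lower, and leaving out replicate 1 gave 5 and 5, of which 3 and 3 were among those called with all libraries. Without either CTCF-K20R EB library, limma called 0 in each direction, and 5 higher and 11 lower had an unadjusted p under 0.05 and a log2 fold change beyond 1.

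Bst2 was called higher on both days, with a log2 fold change of 1.91 ± 0.0789 (SE) in mESCs (adjusted p = 0.000958, limma). Spon1 had 4.41 and 3.68 counts in WT mESCs and 27.4 and 17.7 in CTCF-K20R mESCs. Nefm had 82.8 and 87.1 against 261 and 272, Coro2a, an actin-binding coronin, 20.8 and 21.0 against 47.6 and 51.9, and Cnksr1, a scaffold of RAS signalling, 15.6 and 15.4 against 38.6 and 69.5. Their log2 fold changes were 2.19 for Spon1, 1.64 for Nefm, 1.21 for Coro2a and 1.68 for Cnksr1.

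The 7 genes called lower were Sox3, Hrh3, Mal2, Fgf14, Enpp3, Arl4c and Cpeb1. Sox3 fell by 2.45 ± 0.348 (SE) on the log2 scale in CTCF-K20R mESCs (adjusted p = 0.0118, limma). Arl4c had 196 and 189 counts in WT mESCs and 87.0 and 74.4 in CTCF-K20R mESCs, and Enpp3 154 and 159 against 48.5 and 58.4. Cpeb1 had 172 and 163 against 66.4 and 95.1, and Hrh3 26.5 and 23.8 against 0.751 and 3.36. Mal2 and Fgf14 were at 0 in CTCF-K20R mESCs and close to the limit of detection in WT mESCs, with 4.53 and 3.78, and 3.43 and 2.86 counts, so the size of their change rests on the added 1. In each of the 7, both CTCF-K20R libraries were below both WT libraries on day 0 and above them on day 4.

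**Figure D5:**
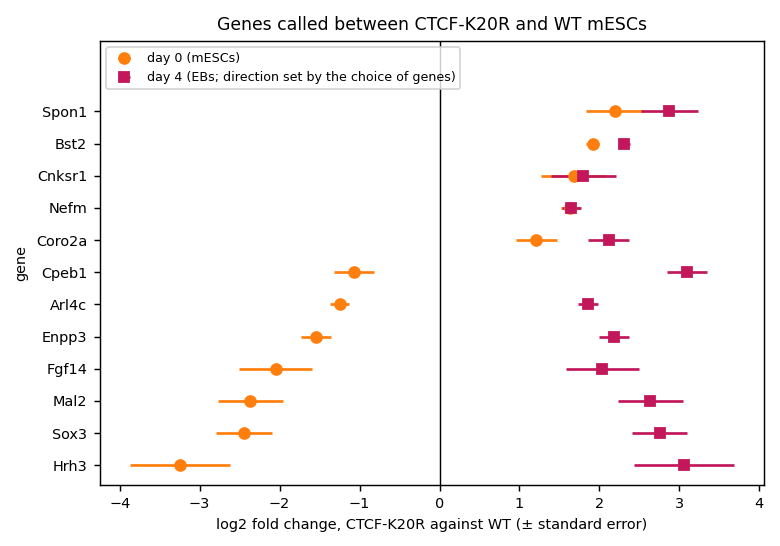
Log2 fold change of CTCF-K20R against WT (± SE) in mESCs (circles) and EBs (squares) for the 12 genes called in mESCs. The day 4 values are positive through the choice of genes; on day 0, 5 genes lie above 0 and 7 below.

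The genes were spread over 19 chromosomes, with 11 on chromosome 2, 11 on chromosome 8, 9 on chromosome 4 and 9 on X, and 0 on chromosome 16. Chromosome 8 held 11.1% of them and 5.26% of the genes tested, and X 9.09% and 3.52%. On chromosome 8 the genes tested were shifted as a whole, by a median of 0.31 (log2) on day 4 and 0.27 on day 0, against 0.01 and -0.01 over all chromosomes. For Ncan, Tmem59l, Plvap, Bst2, Nr3c2, Marveld3 and Mlkl, the 10 genes tested on each side had medians between 0.45 and 0.78 on day 4 and between 0.43 and 0.71 on day 0. Around Snai3, Mfap3l and 4933408N05Rik, also on chromosome 8, these medians were 0.07, 0.06 and 0.05 on day 4. On day 0 they were -0.07, -0.03 and -0.14, so the shift did not cover the whole chromosome. Chromosome 14 was shifted in the opposite direction, with medians of -0.31 on day 4 and -0.28 on day 0 over its genes tested. It held 3 of the chosen genes, and the part of its shift in their levels was not tested. Plvap had the smallest day 4 difference among the 11 genes of chromosome 8, with CTCF-K20R EBs 3.08-fold above WT EBs, and the rule itself required at least 3-fold. The part of the chromosome 8 shift in the levels of these genes was not tested. Without chromosome 8, 88 genes remained, with 4 called higher and 7 lower in mESCs.

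Of 187 direct neighbours that were not among the 99 genes, 23 (12.3%) were called higher and 12 lower on day 4, where 6.89% and 8.65% of all genes tested were. Only 4 pairs of the 99 genes were adjacent or within 100 kb. Plvap, a protein of endothelial diaphragms, and Bst2 lie 22.5 kb apart on chromosome 8, and Mmp25 and Ccdc64b, a dynein adaptor, 15.2 kb apart on chromosome 17. Aadat, an aminotransferase, and Mfap3l lie 87.2 kb apart on chromosome 8, and RP23-423B1.6 lies within Ftx.

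On chromosome 15, Mal2 (54571192 to 54602847) and Enpp2 (54838901 to 54952892) flank Nov, a matricellular protein related to Ctgf. Nov was called higher too, with 4.21 and 3.55 counts in WT EBs and 29.4 and 12.8 in CTCF-K20R EBs, but WT mESCs were at 20.9 and 18.4 and kept it outside the rule. The genes beyond this run, Ext1 and Taf2, had log2 fold changes of -0.23 and 0.56 and were not called. Gm16880 likewise lay between tested neighbours called higher on day 4, Gm19705 and Nr5a2, with log2 fold changes of 2.93 and 2.23. Both neighbours were highest in WT mESCs, and their mESC levels kept them outside the rule. Nr5a2 had mean counts of 2507 (WT mESCs), 2328 (CTCF-K20R mESCs), 14.5 (WT EBs) and 72.0 (CTCF-K20R EBs). Those of Gm19705 were 141, 114, 9.42 and 78.7 in the same order.

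In protein-coding share, exon length and GC content the genes resembled the rest. Protein-coding genes were 89 of the 99, the median exon length was 3853 bases against 4183 for all genes tested, and the median GC content 52.3% against 49.7%. At least 95% of the 31-base words were unique for 71 of 98 genes, and under 80% for 9. A gene on the opposite strand overlapped 42 of the genes, and reads of such pairs may not be told apart where the counting ignored strand. Unique words and overlaps were not counted over all genes tested, so nothing is read from these numbers about the genes as a group.

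RefSeq promoters (GRCm38.p6, 250 bases before and 50 after the start site) were found for 65 of the genes, which had 77 promoters. The ratio of observed to expected CpG had a median of 0.612 in them and 0.723 in the 14895 promoters of genes tested, and was over 0.6 in 50.6% and 64.4%. A TATA box (TATAAA, either strand) stood in 13 (16.9%), of which 4 are overlapping promoters of E530001K10Rik (RefSeq Mir670hg), against 7.51% of promoters of genes tested and 13.6% of all promoters. The SOX motif ACAAAG was in 11.7%, against 14.3% and 18.7%.

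Since CTCF is the altered protein and Pou3f1 binds the octamer, the promoters with the core of the CTCF motif (either strand) and with the octamer (ATGCAAAT, either strand) are shown, 5′ to 3′ on the strand of the gene. The core was in 2 promoters (2.60%), those of Slc27a2 and Kif1a, against 2.71% of the promoters of genes tested and 2.43% of all promoters. The octamer was in 2 (2.60%), those of Pim2 and Prrg4, against 1.34% and 1.74%. Such a match is only a run of letters. Capitals mark the core in the first pair and the octamer in the second, and in Cxcl12, the gene with the largest ratio, every CpG.
Slc27a2 promoter, chr2:126552774-126553073, plus strand: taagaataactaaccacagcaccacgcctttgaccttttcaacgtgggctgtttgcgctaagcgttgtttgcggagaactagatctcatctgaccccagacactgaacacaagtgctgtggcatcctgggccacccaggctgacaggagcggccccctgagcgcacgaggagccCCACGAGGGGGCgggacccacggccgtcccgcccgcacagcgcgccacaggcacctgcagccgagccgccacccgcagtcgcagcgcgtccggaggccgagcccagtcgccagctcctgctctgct
Kif1a promoter, chr1:93101825-93102124, minus strand: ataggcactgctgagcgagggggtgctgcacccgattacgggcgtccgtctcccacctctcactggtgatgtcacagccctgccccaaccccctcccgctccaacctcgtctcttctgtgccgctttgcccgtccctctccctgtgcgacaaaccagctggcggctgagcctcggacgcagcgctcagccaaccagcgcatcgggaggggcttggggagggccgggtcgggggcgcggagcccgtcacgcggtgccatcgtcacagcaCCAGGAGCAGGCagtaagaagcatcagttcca
Pim2 promoter, chrX:7878056-7878355, plus strand: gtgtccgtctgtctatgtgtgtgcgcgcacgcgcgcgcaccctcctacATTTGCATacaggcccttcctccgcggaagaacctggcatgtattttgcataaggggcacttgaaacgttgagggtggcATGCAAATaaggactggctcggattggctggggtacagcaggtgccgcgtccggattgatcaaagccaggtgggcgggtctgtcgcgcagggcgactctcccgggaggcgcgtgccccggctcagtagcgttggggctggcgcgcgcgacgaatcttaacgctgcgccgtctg
Prrg4 promoter, chr2:104849801-104850100, minus strand: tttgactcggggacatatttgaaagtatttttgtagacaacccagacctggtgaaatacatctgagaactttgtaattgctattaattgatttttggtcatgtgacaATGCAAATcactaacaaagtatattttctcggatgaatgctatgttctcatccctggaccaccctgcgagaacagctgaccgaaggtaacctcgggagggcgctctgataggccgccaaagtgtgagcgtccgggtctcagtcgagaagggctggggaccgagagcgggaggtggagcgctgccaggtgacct
Cxcl12 promoter, chr6:117168285-117168584, plus strand: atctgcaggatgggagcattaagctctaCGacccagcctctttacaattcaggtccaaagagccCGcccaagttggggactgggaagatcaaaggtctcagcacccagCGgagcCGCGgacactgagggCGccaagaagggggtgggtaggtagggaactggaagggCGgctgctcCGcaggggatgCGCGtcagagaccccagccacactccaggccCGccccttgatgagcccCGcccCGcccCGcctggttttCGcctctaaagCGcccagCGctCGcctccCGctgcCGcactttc

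The core in Slc27a2 began at position -76 from the start site and that in Kif1a at position 18, inside the transcript. In Pim2 the octamer occurred at 2 places, the outermost beginning at -202, and in Prrg4 at -143. The Cxcl12 promoter held 20 CpGs and had an observed to expected ratio of 0.639.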

How the data were processed

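RNA-seq values of 8 libraries were analysed, 2 for each genotype and day. The authors used Trim Galore, then Salmon with mm10 transcripts, gene-level sums and normalization by DESeq2. What was deposited is a signal, the normalized count of a gene in a library. Its scaling varies by gene as well as library, which kept whole reads from being recovered. The use of strand is not given in the sources used here.

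Testing covered the 15767 genes averaging 10 or more normalized counts. The package limma 3.58.1 (R 4.3.3) was run on log2(value + 1), with a mean-variance trend and Benjamini-Hochberg adjustment. WT pairs were averaged, so 6 samples entered the fit. Averaging was decided once the replicates had been compared; on data simulated with 200 changed genes, both this fit and the one with all 8 libraries were checked. The limit of detection was set at 3 reads from an estimated value of 1 read per library. It was 2.43 to 3.43 normalized counts and covers counting error only. Between 42.9% and 51.2% of low values lay near a whole multiple of that estimate, so the limit is approximate for a single gene. Replicate numbers did not pair the samples (correlation of deviations -0.0397 between CTCF-K20R mESCs and EBs). In the main fit, p-values and SEs rest on the spread between the 2 CTCF-K20R libraries of each day. That spread was pooled over both days and moderated across genes by limma. The p-value of either day therefore uses the CTCF-K20R pairs of both. Each WT pair entered as 1 sample, so p-values do not measure the spread between WT cultures or between edited clones. Positions, exon lengths and 31-base words came from GENCODE vM21 (GRCm38), promoters from RefSeq. Python 3.11.15 was used for counts and plots.

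The 99 genes and all gene lists were chosen with earlier results of these data known, and the roles were assigned after the values were seen. Genes named were the 15 with the largest ratio, the 10 with the highest level, those in a list, adjacent pairs, those beside a limit, those called on day 0, and examples of each role. Alternatives were other limits, scalings, pseudocounts, filters, sample sets and replicate blocks. Values of 1 of the 99 genes and of 1 gene beside a limit are not reported here.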

Additional observations from a re-analysis of the deposited data

Results flagged for a closer look

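The 7 genes called lower in mESCs moved in opposite directions on the 2 days, with both CTCF-K20R libraries below both WT libraries on day 0 and above them on day 4. Their log2 fold changes on day 0 were -2.45 for Sox3, -2.37 for Mal2, -1.07 for Cpeb1, -3.24 for Hrh3, -1.54 for Enpp3, -2.05 for Fgf14 and -1.25 for Arl4c. On day 4 they were 2.75, 2.64, 3.10, 3.06, 2.18, 2.04 and 1.86 in the same order, a direction that the choice of genes set, so the difference between the days was not tested.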

How the results depend on the processing

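The number of genes that met the rule was 287 with a fold of 2, which held all 99, and 34 with a fold of 5. It lay between 98 and 108 when each library was left out in turn, with at least 92 of the 99 retained, and between 76 and 137 under the other limits and scalings. Of the 99 genes, the number called higher in CTCF-K20R mESCs was 10 with all 8 libraries as separate samples, 10 with a replicate block in that fit, 3 with any value above 0 and 9 with the adjusted p alone, and 0 to 5 when a CTCF-K20R library was left out. The number called lower was 16, 15 with the replicate block and 12 with only the day 0 libraries, and 0 to 6 when a CTCF-K20R library was left out. With a replicate block on the CTCF-K20R libraries it was 4 higher and 7 lower. The number called higher on day 4 was 53 to 97 when a CTCF-K20R library was left out, and 60 to 99 otherwise, with 65 genes tested at a mean of at least 50. No day 0 fold change of the 12 called genes reversed under any alternative. With a pseudocount of 5, the fold changes of Mal2 (-0.87) and Fgf14 (-0.70) were no longer called. Limits are the 2 libraries per group, the WT pairs that count as 1 sample each, and values near the limit of detection, where fold changes rest on the pseudocount.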
